A study of Mus musculus with 15 samples.

Results

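Atoh1, Dbx1, Shox2 and Evx1 encode transcription factors that mark the progenitors or young neurons from which hindbrain breathing circuits are built, and they are 4 of the 57180 genes listed in the count tables. They were taken by symbol, after the Ensembl identifiers of the tables had been matched to mouse gene names. No measured value entered that rule, but the factors were chosen with earlier results of these data known. RNA of mouse brainstem ventilatory centres (C57BL/6) was sequenced in 15 libraries from 2 experiments. The neonatal experiment held 3 WT libraries (AMPK+/+) and 3 libraries labelled AMPKα2-/- (AMPK-/- in the labels), after the α2 catalytic subunit of AMP-activated protein kinase, an energy sensor, which is encoded by Prkaa2. The prenatal experiment held 3 WT libraries (Lmx1b+/+), 3 Lmx1b+/- libraries and 3 Lmx1b-/- libraries, Lmx1b being a LIM homeodomain factor of the dorsal spinal cord and the hindbrain. The study's methods describe its postnatal mice in general as in their first postnatal days, and its results describe its WT mice as littermates of the mutants. The age of each library, the embryonic day, the litter of each animal and any pooling were not given in the sources used here, so that p-values measure only the spread between these libraries.

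The hindbrain breathing network is assembled from neurons born in separate dorsoventral domains of the neural tube. Atoh1, a basic helix-loop-helix factor, is expressed in the rhombic lip, from which cerebellar granule cells and several hindbrain nuclei arise, and it is also expressed in the neurons of the retrotrapezoid nucleus, which respond to CO2. Dbx1, a homeobox factor, is expressed transiently in the V0 progenitors whose excitatory daughters form the rhythm-generating core of the preBötzinger complex, and Evx1 follows it in the young ventral V0 neurons. Shox2, a homeobox factor, is expressed in a group of excitatory interneurons that overlaps with the V2a neurons, and outside the brainstem also in thalamus, sensory ganglia, limb and heart.

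Total counts were 14975095 to 17384171 in 4 of the 6 neonatal libraries and 28833130 to 37441679 in the 9 prenatal libraries. The neonatal libraries WT 2 and AMPKα2-/- 3 stood apart with 291212 and 335986 counts. CPM here are counts relative to the library total after TMM scaling, the normalisation of edgeR. The level that a count of 0 allows, taken as 3 counts, was 0.175 to 0.198 CPM in the 4 deeper neonatal libraries, 9.96 CPM in WT 2 and 9.04 CPM in AMPKα2-/- 3. In the prenatal libraries it was 0.0675 to 0.108 CPM, and it covers counting error only. The share of counts on mitochondrially encoded genes was 10.4 to 13.9% in neonatal WT and 20 to 21.7% in the libraries labelled AMPKα2-/-. It was 5.57 to 6.74% in prenatal WT, 9.58 to 14.7% in Lmx1b+/- and 7.23 to 7.98% in Lmx1b-/-, so that it separated the genotypes in each comparison below, and its part in the differences was not tested. Of 10 Hox genes that mark the hindbrain, 9 were above 3 counts in at least 1 library of each neonatal genotype and 10 in each prenatal genotype.

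The targeted genes were read first. Lmx1b was at 16.1 ± 6.38 CPM (SD, n = 3) in prenatal WT, 18.9 ± 10.2 in Lmx1b+/- and 1.14 ± 0.302 in Lmx1b-/-, a log2 fold change of -3.82 ± 0.41 (SE) between Lmx1b-/- and WT (adjusted p = 0.00287, edgeR's quasi-likelihood test with Benjamini-Hochberg adjustment). The Lmx1b+/- libraries were not lower than WT in this gene, with a log2 fold change of 0.23 (edgeR adjusted p = 0.618). In the neonatal experiment Lmx1b was called lower in the libraries labelled AMPKα2-/-, at -1.35 ± 0.37 (SE, edgeR adjusted p = 0.0233). It was at 18.8, 13.3 and 13.4 CPM in neonatal WT 1 to 3 and at 2.83, 9.63 and 6.03 CPM in AMPKα2-/- 1 to 3. The study chose Lmx1b in part for this difference, so its direction is not independent of that choice. Prkaa2 averaged 26.0 ± 3.91 CPM over neonatal WT against 19.9 ± 6.93 CPM over the libraries labelled AMPKα2-/- (n = 3 each, log2 fold change of -0.20, edgeR adjusted p = 0.659). The count of this gene did not therefore separate the neonatal genotypes, and which part of the gene was deleted was not given in the sources used here. AMPKα2-/- stands below for the libraries so labelled.

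Of the 4 factors, Shox2 and Evx1 were read in both experiments, whereas Atoh1 and Dbx1 had 0 counts in every neonatal library. Per gene length, in the deposited RPKM (reads per kilobase and sequencing depth), Shox2 had the highest level of the 4 in 9 of 9 prenatal libraries and Dbx1 the lowest in 8 of 9. In prenatal WT the RPKM were 12.2 ± 2.33 for Shox2, 1.96 ± 0.0454 for Atoh1, 1.05 ± 0.0878 for Evx1 and 0.539 ± 0.309 for Dbx1 (SD, n = 3). Atoh1 was above Evx1 on this scale in 7 of 9 prenatal libraries. Levels in a tissue homogenate cannot tell fewer cells of a type from less RNA per cell.

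**Figure D1:**
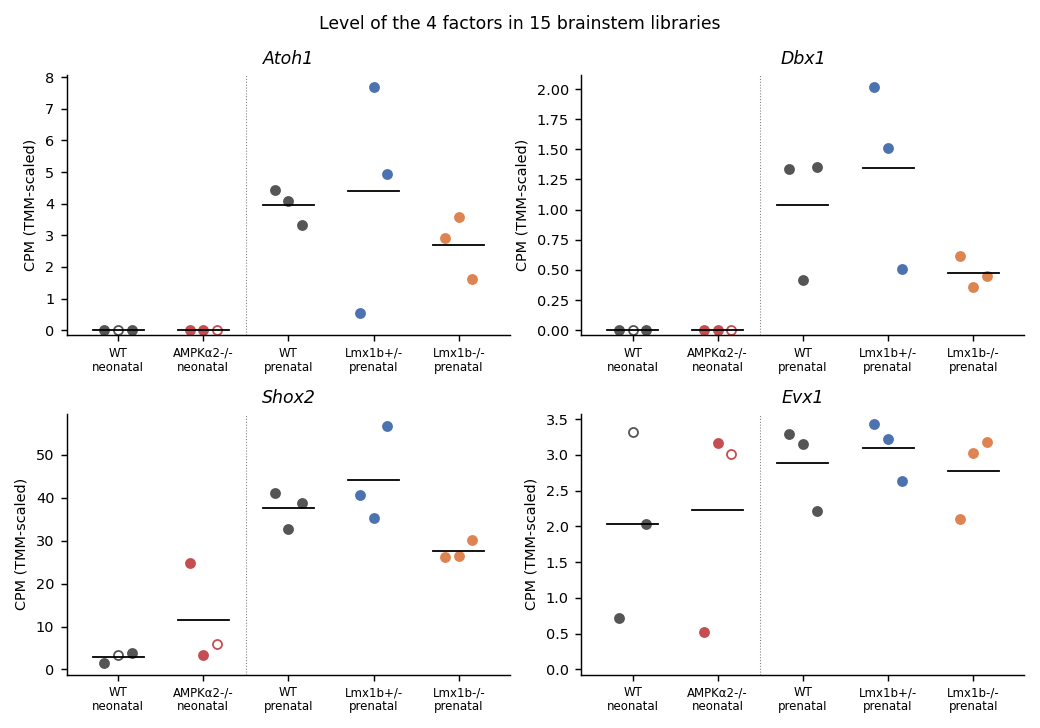
CPM (TMM-scaled, linear axes from 0) of Atoh1, Dbx1, Shox2 and Evx1 in the 15 libraries, by genotype and experiment; points are libraries, bars are means of 3, and open points are the 2 shallow neonatal libraries. Atoh1 and Dbx1 sit at 0 in all neonatal libraries, Shox2 in Lmx1b-/- (26.3 to 30.1 CPM) lies below every prenatal WT and Lmx1b+/- library, and 1 library labelled AMPKα2-/- reaches 24.9 CPM of Shox2.

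The promoter sequences of the factors were read from RefSeq (build GRCm38.p6), as windows from 250 bases before to 50 bases after the start of each gene. A window was found for each of the 4 factors. Those of Dbx1 (chr7:49636786-49637085, minus strand) and Shox2 (chr3:66981722-66982021, minus strand) are shown because these were the factors called between Lmx1b-/- and Lmx1b+/-, with capitals marking TATAAA on the strand of the gene:
Dbx1: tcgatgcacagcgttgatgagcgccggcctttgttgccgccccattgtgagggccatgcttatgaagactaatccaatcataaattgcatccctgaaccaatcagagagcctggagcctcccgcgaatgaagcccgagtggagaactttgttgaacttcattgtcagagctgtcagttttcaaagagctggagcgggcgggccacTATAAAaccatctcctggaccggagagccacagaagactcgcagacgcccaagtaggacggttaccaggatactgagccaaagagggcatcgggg
Shox2: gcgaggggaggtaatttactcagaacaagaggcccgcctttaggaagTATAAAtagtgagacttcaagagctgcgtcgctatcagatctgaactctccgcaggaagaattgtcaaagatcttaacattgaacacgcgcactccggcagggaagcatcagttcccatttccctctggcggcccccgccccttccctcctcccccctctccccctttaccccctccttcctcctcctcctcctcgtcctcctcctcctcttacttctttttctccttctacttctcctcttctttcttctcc
This motif, the core of a common promoter element and looked for only after the sequences had been seen, began at position -45 from the start in Dbx1 and at -203 in Shox2. It was held on either strand by 13.6% of the 32851 windows of the table, and not by those of Atoh1 (chr6:64728875-64729174, plus strand) and Evx1 (chr6:52313248-52313547, plus strand). Neither TAATTA, a core that LIM homeodomain factors bind, nor CAGCTG, an E-box that basic helix-loop-helix factors bind, was found on either strand in the windows of the 4 factors. TAATTA was held by 5.29% and CAGCTG by 16.3% of all windows. The windows of the factors held 11 (Shox2) to 20 (Atoh1) CpG dinucleotides.

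Atoh1, the retrotrapezoid and rhombic lip factor, had 126, 118 and 148 counts in prenatal WT 1 to 3, or 4.43, 4.08 and 3.33 CPM. The Lmx1b+/- libraries held 0.542, 7.7 and 4.94 CPM, and the Lmx1b-/- libraries 2.9, 3.59 and 1.62 CPM. Lmx1b+/- thus held both the lowest and the highest of the 9 prenatal libraries, and the ranges of the 3 genotypes overlapped, so that neighbours in the order Lmx1b+/-, WT, Lmx1b-/- did not differ beyond their spread. The biological coefficient of variation of Atoh1 within genotypes was 0.486, against 0.197 for genes of its level, a ratio above that of 99.5% of the genes tested. In the neonatal experiment Atoh1 had 0 counts in all 6 libraries, which put neonatal WT at least 20.1-fold lower than the mean of prenatal WT (3.95 CPM), when set against the higher of the levels that a count of 0 allows in the 2 deeper WT libraries (0.197 CPM). The tables were normalised separately and age and experiment cannot be told apart in this ratio.

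Dbx1, the V0 progenitor factor, was the least abundant of the 4, with 12 to 60 counts in the prenatal libraries. It was at 1.34, 0.415 and 1.35 CPM in WT 1 to 3, at 2.02, 1.51 and 0.509 CPM in Lmx1b+/- 1 to 3, and at 0.613, 0.356 and 0.45 CPM in Lmx1b-/- 1 to 3. The Lmx1b-/- libraries lay together at the low end, but WT 2 and Lmx1b+/- 3 fell within their range, so the genotypes overlapped. Its coefficient of variation was 0.397 against 0.255 for genes of its level. With 0 counts in the neonatal libraries, neonatal WT was at least 5.23-fold lower than the mean of prenatal WT (1.03 CPM) by the same reckoning.

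Shox2 was by far the best counted factor, with 816 to 1895 counts in each prenatal library. It was at 41.1, 32.8 and 38.9 CPM in WT 1 to 3, at 40.6, 35.2 and 56.8 CPM in Lmx1b+/- 1 to 3, and at 26.3, 26.4 and 30.1 CPM in Lmx1b-/- 1 to 3. All 3 Lmx1b-/- libraries were lower than all 6 other prenatal libraries, while WT and Lmx1b+/- overlapped. In the neonatal experiment, WT 1 to 3 held 23, 1 and 66 counts (1.51, 3.32 and 3.84 CPM) and the libraries labelled AMPKα2-/- 1 to 3 held 378, 52 and 2 counts (24.9, 3.36 and 6.03 CPM). AMPKα2-/- 1 was thus 24.9 CPM against 1.51 to 6.03 CPM in the 5 others, and AMPKα2-/- 2, the other deep library of its genotype, lay within the range of WT.

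Evx1, the factor of ventral V0 neurons, was at 3.3, 3.15 and 2.21 CPM in prenatal WT 1 to 3, at 3.43, 3.22 and 2.64 CPM in Lmx1b+/- and at 2.1, 3.03 and 3.18 CPM in Lmx1b-/-, with overlapping ranges. Its coefficient of variation in these libraries was 0.188, against 0.207 for genes of its level. Neonatal WT 1 to 3 held 0.722, 3.32 and 2.04 CPM of Evx1, and the libraries labelled AMPKα2-/- 0.527, 3.17 and 3.01 CPM, with 1 count in each of the shallow libraries, so that both genotypes spanned nearly the same range. All 5 groups overlapped with their neighbours in the order of the Evx1 means. Evx1os, the transcript named for the strand opposite to Evx1, had 50 to 116 counts in each prenatal library, and how the counting used strand was not given in the sources used here, so its reads and those of Evx1 may not be fully separated.

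Between the neonatal libraries labelled AMPKα2-/- and WT, 17397 genes could be tested, among them Shox2 and Evx1 but not Atoh1 and Dbx1. Shox2 was called higher in the libraries labelled AMPKα2-/-, with a log2 fold change of 2.30 ± 0.55 (SE, 95% interval 1.16 to 3.44, edgeR adjusted p = 0.0123). Evx1 was not called, with a log2 fold change of 0.38 (95% interval -0.95 to 1.73, edgeR adjusted p = 0.764). This makes 1 of the 2 factors tested, where 8.94% of all genes tested were called. Shox2 stood in the factor list that the study drew up on these same libraries, so its call is not independent of that choice. The Shox2 call rested on AMPKα2-/- 1, since without that library the log2 fold change was 0.45 and the edgeR adjusted p 0.779. Without the 2 shallow libraries the difference was of like size, 2.39, but was not called (edgeR adjusted p = 0.184), and DESeq2 gave Shox2 no adjusted p. The means of 11.4 ± 11.7 and 2.89 ± 1.22 CPM (SD, n = 3) gave p = 0.2 in the two-sided exact permutation test, in which 3 against 3 libraries cannot go below 0.1. The CPM of the genotypes overlapped for both factors, as for all but 26.6% of the genes tested.

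AMPKα2-/- 1 differed from the other neonatal libraries in further genes. The summed CPM of 10 Hox genes of cervical and spinal levels was 37.3 there, against 133 to 321 in the 5 others. In WT, 8 of these genes were above 3 counts (summed CPM 212 to 321), in AMPKα2-/- also 8 (37.3 to 277), and neither Hoxc6 nor Hoxc8, the defining markers, was at 0 throughout a genotype. Lhx4, a LIM factor of V2 and motor neurons, was at 9.03 CPM in that library and at 0 to 4.37 CPM in the others. It was not among the 9 listed circuit genes called between these genotypes in the main fit. The summed CPM of 10 genes of the V2 lineage set that library less apart. It was 37.4 there, 18.2 and 33.2 in AMPKα2-/- 2 and 3 and 16.5 to 28.6 in WT. The summed CPM of 9 sensory ganglion genes was 92.8 in AMPKα2-/- 1, 49.5 and 75.3 in AMPKα2-/- 2 and 3 and 12.3 to 32.1 in WT. In both genotypes 6 of the 9 were above 3 counts, and the marker Avil was not at 0 throughout either. The summed CPM of 10 hypothalamus genes was 75.5 in AMPKα2-/- 1 against 4.71 to 42.2 in the 5 others, with 5 of the genes above 3 counts in WT (4.71 to 19.9) and 3 in AMPKα2-/- (8.85 to 75.5). Of their defining markers, Nkx2-1 was at 0 in every AMPKα2-/- library and Otp was not. The sum of the 10 hindbrain Hox genes was lowest in AMPKα2-/- 1, at 27.0 against 36.8 to 57.3 CPM in the 5 others. That of 10 midbrain genes was highest there, at 52.7 against 15.1 to 39.8 CPM. The sum of 10 thalamus genes did not set that library apart, at 197 CPM there and 146 to 202 CPM in the 5 others. The part of these in the Shox2 difference was not tested.

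**Figure D2:**
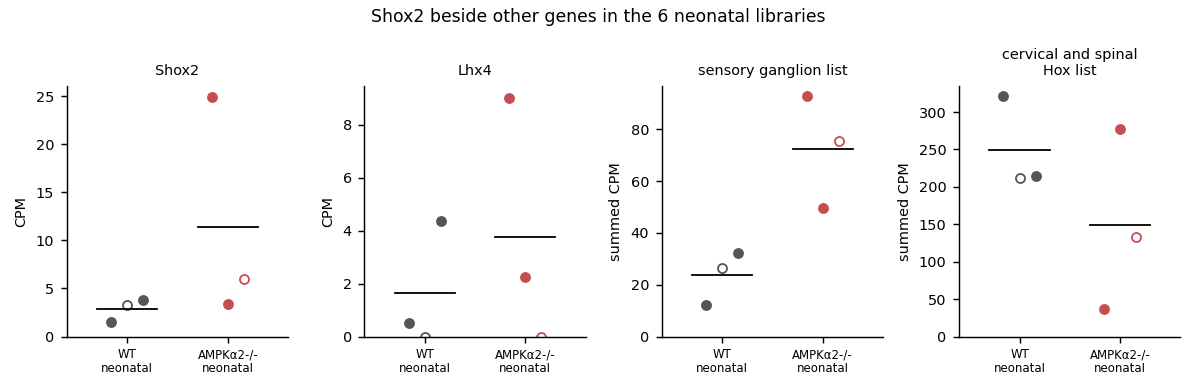
CPM of Shox2 and Lhx4 and summed CPM of the sensory ganglion and the cervical and spinal Hox lists in the 6 neonatal libraries (linear axes from 0); points are libraries, open points the 2 shallow ones, and bars are means of 3. The library with 24.9 CPM of Shox2 is also the one with 9.03 CPM of Lhx4 and a Hox sum of 37.3.

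In the prenatal experiment 21729 genes were tested, all 4 factors among them, and the 3 comparisons share libraries. Between Lmx1b+/- and WT, 0 of the 4 factors were called by edgeR and 0 by DESeq2, where 36.7% of all genes tested were called by edgeR. At an unadjusted p under 0.05 there were 0 of the 4, where 46.1% of all genes tested passed. The log2 fold changes were 0.17 for Atoh1 (95% interval -1.03 to 1.37), 0.35 for Dbx1 (-0.68 to 1.39), 0.23 for Shox2 (-0.10 to 0.57) and 0.11 for Evx1 (-0.38 to 0.60). With libraries scaled by their total alone, Shox2 and Evx1 turned to -0.02 and -0.11, and Atoh1 to -0.00. None of the 4 had CPM that did not overlap, where 45.3% of all genes tested had.

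Between Lmx1b-/- and WT, 0 of the 4 factors were called by edgeR, where 0.0184% of all genes tested (4 genes, all lower) were called, and DESeq2 called 34 genes, with 0 of the 4 factors among them. At an unadjusted p under 0.05 there were 2 of the 4, where 8.09% of all genes tested passed. Dbx1 had a log2 fold change of -1.15 ± 0.52 (SE, edgeR adjusted p = 0.617) and Shox2 one of -0.45 ± 0.16 (SE, edgeR adjusted p = 0.544). Shox2 was the only one of the 4 whose CPM did not overlap between these genotypes, where 18.0% of all genes tested did not, and its means of 27.6 ± 2.13 and 37.6 ± 4.27 CPM gave p = 0.1 in the exact permutation test, the smallest possible. Without a filter on low counts, Shox2 passed with an edgeR adjusted p of 0.0275, where 329 of the 40964 genes tested were called. Atoh1 and Evx1 had log2 fold changes of -0.55 (95% interval -1.77 to 0.68) and -0.05 (-0.53 to 0.44).

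Between Lmx1b-/- and Lmx1b+/-, Shox2 and Dbx1 were lower in Lmx1b-/-, 2 of the 4 factors, where 25.5% of all genes tested were called. The log2 fold change of Shox2 was -0.68 ± 0.16 (SE, 95% interval -1.01 to -0.34, edgeR adjusted p = 0.00633), from means of 44.2 ± 11.2 to 27.6 ± 2.13 CPM (exact permutation p = 0.1). It passed the threshold whichever of the 9 libraries was left out, with values of -0.87 to -0.46, but not with libraries scaled by their total alone (-0.47, edgeR adjusted p = 0.0551) or under the 2 limma settings on RPKM (limma adjusted p = 0.0942 and 0.0875). Dbx1 fell by 1.50 ± 0.52 on the log2 scale (95% interval -2.63 to -0.39, edgeR adjusted p = 0.0486), from means of 1.35 ± 0.771 to 0.473 ± 0.13 CPM (exact permutation p = 0.2). Leaving out 1 library ended its call in 7 of 9 cases, at edgeR adjusted p of 0.0515 to 0.175, as did scaling by totals alone (0.0504). Both limma settings (adjusted p = 0.125 and 0.134) ended it too, as did a further fit with the replicate number as a term (edgeR adjusted p = 0.0556). Shox2 was the only one of the 4 without overlap between these genotypes, where 42.4% of all genes tested had none. The summed CPM of the 9 sensory ganglion genes did not overlap either, at 95.5 to 101 in Lmx1b+/- and 64.2 to 81.2 in Lmx1b-/-. In WT it was 65.4 to 75.7. Of the 7 ganglion genes tested, 1 was called lower in Lmx1b-/- than in Lmx1b+/-. The thalamus list did overlap, at 206 to 447 and 244 to 358 summed CPM. The part of these in the Shox2 difference was not tested.

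Atoh1 and Evx1 were not called between Lmx1b-/- and Lmx1b+/-, at log2 fold changes of -0.72 (95% interval -1.94 to 0.50, edgeR adjusted p = 0.392) and -0.16 (-0.64 to 0.33, edgeR adjusted p = 0.654). Without Lmx1b+/- 1, the library with 0.542 CPM of Atoh1, the log2 fold change of Atoh1 was -1.24 with an edgeR adjusted p of 0.00764. Without a filter on low counts Atoh1 was called as well (-0.74, edgeR adjusted p = 0.00944), which made 3 of the 4. In that setting 5692 of the 40964 genes tested were called. Over the 14 exact permutation tests of a factor and a comparison, the smallest Benjamini-Hochberg adjusted p was 0.56.

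**Figure D3:**
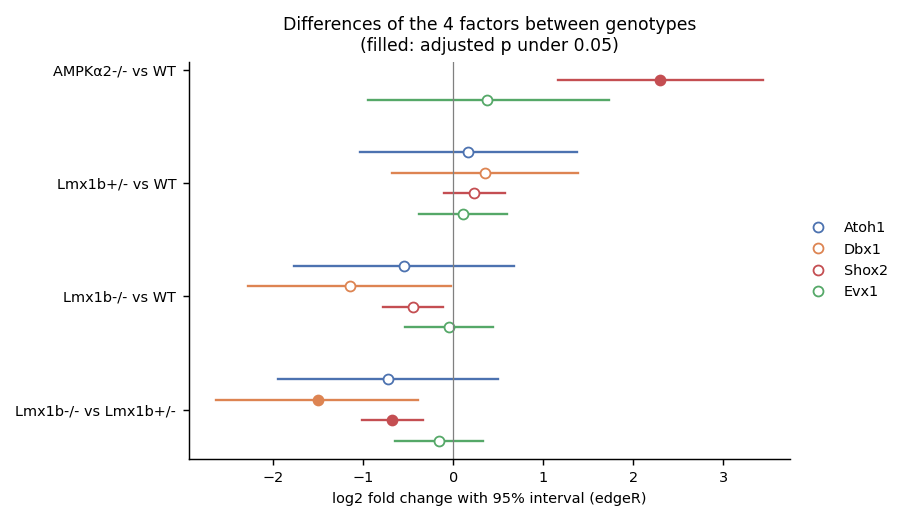
Log2 fold changes of the 4 factors in the 4 comparisons with 95% intervals from edgeR; filled points have an adjusted p under 0.05. Shox2 is higher in AMPKα2-/- (2.30), Shox2 (-0.68) and Dbx1 (-1.50) are lower in Lmx1b-/- than in Lmx1b+/-, and Atoh1 and Dbx1 have no point in the neonatal comparison because they had 0 counts.

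Dbx1 and Atoh1 were set beside genes of neighbouring tissues, with the lists picked after the values had been seen. The 4 prenatal libraries with 1.34 to 2.02 CPM of Dbx1 (WT 1, WT 3, Lmx1b+/- 1 and Lmx1b+/- 2) had a summed CPM of 10 midbrain genes of 109 to 165, and the 5 libraries with 0.356 to 0.613 CPM of Dbx1 had 49.8 to 72.6. All 10 midbrain genes were above 3 counts in each prenatal genotype, neither En1 nor Otx2, the defining markers, was at 0, and the sums were 72.6 to 165 in WT, 49.8 to 119 in Lmx1b+/- and 57.6 to 66.8 in Lmx1b-/-. Atoh1 was lowest in the library with the lowest sum of 10 choroid plexus genes (Lmx1b+/- 1, 96.3 summed CPM) and highest in that with the highest (Lmx1b+/- 2, 1710 summed CPM). Outside Lmx1b+/- the order did not hold, since Lmx1b-/- 1 had 2.9 CPM of Atoh1 at a sum of 1350 and Lmx1b-/- 2 had 3.59 CPM at 762, and WT 1 to 3 had 4.43, 4.08 and 3.33 CPM at 400, 250 and 351. These sums were 250 to 400 in WT, 96.3 to 1710 in Lmx1b+/- and 132 to 1350 in Lmx1b-/-, with all 10 genes above 3 counts and neither Ttr nor Kl at 0 in any genotype, and Otx2 stands in both lists. Lmx1b+/- 1 also had the highest cervical and spinal Hox sum, 665 against 108 to 315 in the 8 others. Of that list, 6 of the 7 genes tested were called higher in Lmx1b+/- than in WT (median log2 fold change 1.76). Of the hindbrain Hox list 4 of the 9 tested were (median 0.81), with sums of 95.6 to 150 against 51.6 to 108 in WT. Over all genes tested 36.7% were called. Between Lmx1b-/- and Lmx1b+/- the calls were 0 and 1, the latter lower in Lmx1b-/-. The part of these in the differences of Dbx1 and Atoh1 was not tested.

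**Figure D4:**
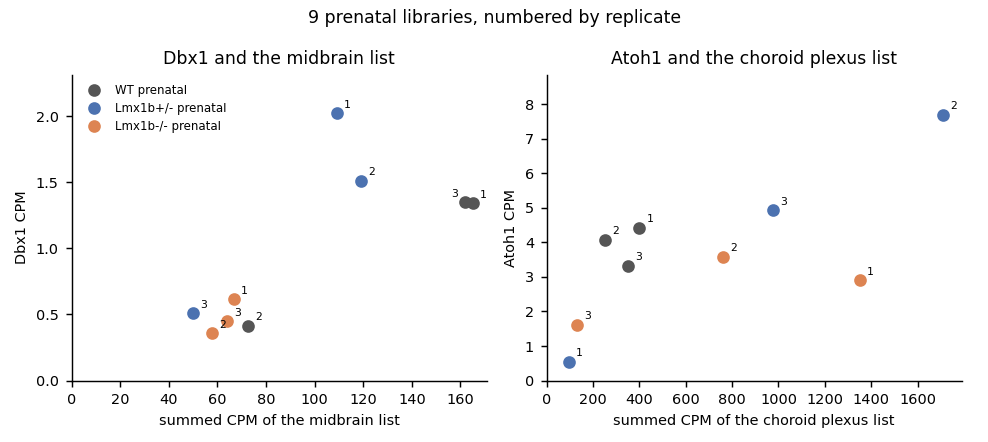
Left, Dbx1 CPM against the summed CPM of the midbrain list, and right, Atoh1 CPM against the summed CPM of the choroid plexus list, in the 9 prenatal libraries (linear axes from 0, points numbered by replicate). Libraries above 1.3 CPM of Dbx1 have midbrain sums of 109 to 165, and the lowest and highest Atoh1 values are both Lmx1b+/- libraries.

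The genes whose log2 CPM were most like each factor over the 9 prenatal libraries were listed as a description, out of 21725 genes. For Atoh1 these were Aaed1 (Pearson r = 0.96), Adi1 (0.96) and Nrk (0.95). For Dbx1 they were Pou4f3 (r = 0.94), Six3os1 (0.93) and Gm8784 (0.93), and for Shox2 Gchfr (0.95), Narf (0.91) and Cenpm (0.91). For Evx1 they were Grhl2 (r = 0.91, with a Spearman rho of 0.48) and 2 genes without a symbol, ENSMUSG00000120022 (0.90) and ENSMUSG00000120303 (0.90). Such values are the highest of many and the libraries share their genotypes and composition.

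Further genes of the same lineages were read from 5 lists, 55 genes in all. The lists were chosen with earlier results of these data known, so their shares of called genes are not independent of that choice. In the neonatal comparison 9 of the 41 tested were called, 4 higher and 5 lower, or 22.0% against 8.94% of all genes tested, with a median log2 fold change of -0.14 against -0.01 over all genes tested. Of the retrotrapezoid list (9 tested), Lbx1 and Tlx3, homeobox factors of dorsal hindbrain interneurons, were lower, at log2 fold changes of -1.78 and -2.13. The list as a whole was not lower, with a median of -0.05 and summed CPM of 256 to 282 in WT and 294 to 346 in AMPKα2-/-. Of the V2 list (7 tested), Gata3, a factor of inhibitory V2b neurons, was higher, at 2.07. Of the V0 and preBötzinger list (11 tested), Cdh9, a cadherin of preBötzinger neurons, was higher, at 2.01, whereas Pax2 and Reln were lower, at -1.81 and -0.91. The rhombic lip list (5 tested) had Barhl1, a homeobox factor downstream of Atoh1, lower, at -3.06, and Nhlh2 higher, at 2.13, and the progenitor domain list (9 tested) had Nkx6-1, a ventral factor, higher, at 1.83. Barhl1 also stands in the cerebellar granule cell list, whose sum was 229 to 313 CPM in WT and 181 to 228 in AMPKα2-/-, with 10 and 9 of 10 genes above 3 counts and neither Cbln1 nor Gabra6 at 0 throughout a genotype, and of which Rbfox3 was called too (-1.08). The choroid plexus list was at 21.8 to 30.7 CPM in WT and 49.6 to 145 in AMPKα2-/-, with 8 and 9 of 10 genes above 3 counts and neither Ttr nor Kl at 0 throughout, and Ttr (3.80) and Kcnj13 (3.98) were called higher. The part of these in the listed genes' differences was not tested.

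Without AMPKα2-/- 1, 4 of these listed genes were called, and 3 of the 9 remained, Barhl1, Cdh9 and Pax2. Without AMPKα2-/- 3, WT 2 or WT 3 the listed genes called were 4, 5 and 4, and without AMPKα2-/- 2 they were 15. Without the 2 shallow libraries none was, with 6 genes called over the whole table. Pax2 and Shox2 stood in the factor list that the study drew up on these neonatal libraries, so their directions are not independent of that choice.

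The listed genes were read in the prenatal comparisons too. Between Lmx1b+/- and WT, 6 of 54 tested were called (11.1%, against 36.7% of all genes tested), all lower in Lmx1b+/-, with a list median of -0.23 against -0.03. They were Evx2, the paralogue of Evx1 (-0.80), Oprm1, the μ-opioid receptor gene of preBötzinger neurons (-0.72), Nhlh1 (-0.68), Gpr4, a proton receptor gene of the retrotrapezoid nucleus (-0.64), Nkx2-2 (-0.62) and Olig2 (-0.40), the last 2 being ventral progenitor factors. The 5 lists had 11, 12, 9, 10 and 12 genes tested, in the order of retrotrapezoid, V0, V2, rhombic lip and progenitor domains. Of these, 1, 2, 0, 1 and 2 were called, and the list medians were 0.01, -0.26, -0.40, -0.39 and -0.35. The count moved with single libraries: it was 2 without WT 1, 16 without WT 2 (4 of the 6 among them), 3 without WT 3, 9 without Lmx1b+/- 1 (4 of the 6) and 10 without Lmx1b+/- 2 (4 of the 6). Scaling by totals alone gave 21 and no filter 24, with all 6 among them. The direction also moved, since Lhx3 (1.24), Msx1 (1.42) and Nkx6-2 (0.65) were called higher in Lmx1b+/- without Lmx1b+/- 1. Between Lmx1b-/- and WT, 0 of 54 were called by edgeR and 1 by DESeq2, with a median of -0.16 against 0.01.

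Between Lmx1b-/- and Lmx1b+/-, 7 of the 54 were called (13.0%, against 25.5%), with a median of -0.02 against 0.02. Tlx3 (-1.46), Lbx1 (-0.95) and Sst, the peptide gene of many preBötzinger neurons (-0.66), were lower in Lmx1b-/-. Nkx2-2 (0.69), Oprm1 (0.67), Dbx2, the relative of Dbx1 that is expressed over a broader progenitor domain (0.53), and Olig2 (0.43) were higher. Evx2, which was lower in Lmx1b+/-, was at 5.23, 6.32 and 5.11 CPM in Lmx1b-/-, 4.01, 4.51 and 5.0 CPM in Lmx1b+/- and 8.47, 6.78 and 8.37 CPM in WT. Of the V2 and rhombic lip lists, none was called here. Without Lmx1b+/- 1, 2 of the listed genes were called in this comparison, and without Lmx1b-/- 1 or Lmx1b-/- 3 also 2.

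**Figure D5:**
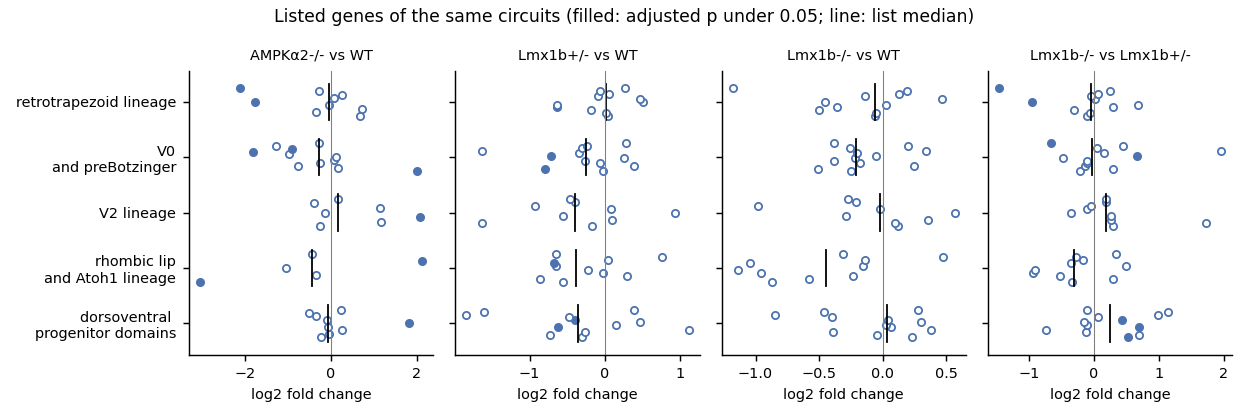
Log2 fold changes of the listed genes of the same circuits in the 4 comparisons, by list; filled points have an edgeR adjusted p under 0.05 and black lines are list medians. Filled points lie on both sides of 0 between AMPKα2-/- and WT (4 higher, 5 lower), only below 0 between Lmx1b+/- and WT (6 genes), and nowhere between Lmx1b-/- and WT.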

How the data were processed

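RNA-seq values of 15 brainstem libraries were used, in 2 tables of 3 libraries per genotype. The authors deposited counts per gene, whole numbers without normalization, and RPKM per gene, in which the same counts are scaled to the length of the gene and to the total of the library. The submitters' processing notes name HISAT2 and GRCm39, and how strand, multiply matching reads and molecular indexes were handled is not given in the sources used here. Of 57180 identifiers, 51884 were matched to a symbol, with 0 columns left unused. Neonatal WT 3 was taken from a column whose name carries a suffix, and the column of prenatal WT 3 carries the number of its library name.

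The tests on counts used edgeR 4.0.16 under R 4.3.3 (filterByExpr defaults, TMM, quasi-likelihood F-test with genotype as the only term), in 1 fit of the 6 neonatal and 1 fit of the 9 prenatal libraries. A gene was called where its p, adjusted by Benjamini-Hochberg over all tested genes, was under 0.05. CPM of the factors were also compared by two-sided exact permutation tests (Python 3.11.15, scipy 1.17.1). The alternatives were DESeq2 1.42.0, limma 3.58.1 on log2(RPKM + 1) and log2(RPKM + 0.1), other scalings, no filter, a replicate block, and leaving out libraries. The edgeR fit was tried on simulated counts with known changes, drawn at the spread typical of genes of each level. The spread of Atoh1, Dbx1 and Shox2 within genotypes lay above that, so their calls were not covered by it.

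Besides the 4 factors and the targeted genes, the text names the called genes of the circuit lists (up to 4 per list and comparison, by p), the 3 genes most like each factor (Pearson, log2 CPM with a prior count of 2) and genes of lists that moved with a result. The factors and lists were chosen with earlier results of these data known. Some genes of these lists are not reported here and were left out of the list counts and sums.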

Additional observations from a re-analysis of the deposited data

How the results depend on the processing

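Depth set the limits for the neonatal comparison, in which 2 of the 6 libraries held at most 335986 counts, and for Dbx1, with 12 to 60 counts in a library. Scaling by library totals alone moved the median log2 fold change of all genes from -0.01 to -0.18 between AMPKα2-/- and WT, from -0.03 to -0.27 between Lmx1b+/- and WT and from 0.02 to 0.22 between Lmx1b-/- and Lmx1b+/-. The higher and lower calls then went from 655 and 900 to 280 and 1651, from 4225 and 3752 to 2058 and 5815, and from 2500 and 3044 to 3737 and 1297. The causes were not tested. The alternatives for the circuit lists were added after the data had been seen.

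Between AMPKα2-/- and WT, 1555 genes, 1 factor and 9 listed genes were called. The counts were 6, 0 and 0 without the 2 shallow libraries, 680, 0 and 1 with DESeq2, and 0, 0 and 0 with limma on log2(RPKM + 1) and log2(RPKM + 0.1). Leaving out 1 library gave 541 to 2959 genes, 0 to 1 factors and 4 to 15 listed genes. Shox2 was at 0.90 and 1.33 under the 2 limma settings and between 0.45 and 3.11 with 1 library left out. Evx1 changed sign with the replicate block (-0.21), with limma (-0.02 and -0.08) and with libraries left out (-1.17 to 1.19).

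Between Lmx1b+/- and WT, 21 listed genes were called by totals alone, 24 without the filter and 10 with limma on log2(RPKM + 0.1), against 6. Over all genes 7873, 8233 and 7280 were called in these settings, against 7977. Leaving out 1 library gave 5911 to 8405 genes, 0 factors and 2 to 16 listed genes, with log2 fold changes of -0.47 to 0.67 for Atoh1, -0.07 to 0.75 for Dbx1, 0.01 to 0.40 for Shox2 and -0.05 to 0.22 for Evx1. By totals alone Atoh1, Shox2 and Evx1 were at -0.00, -0.02 and -0.11, with limma on log2(RPKM + 1) at -0.20, -0.02 and -0.06, and on log2(RPKM + 0.1) at -0.60, -0.02 and -0.11. With the replicate block Atoh1 was at -0.03.

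Between Lmx1b-/- and WT, 19 genes were called by totals alone, 329 without the filter, 34 with DESeq2 and 13 in a fit of the 6 libraries compared, against 4. Without the filter 1 factor and 7 listed genes were called, and with DESeq2 1 listed gene. Leaving out 1 library gave 3 to 11 genes, 0 factors and 0 listed genes, with -0.81 to -0.28 for Atoh1, -1.51 to -0.91 for Dbx1, -0.53 to -0.38 for Shox2 and -0.25 to 0.11 for Evx1.

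Between Lmx1b-/- and Lmx1b+/-, the number of factors called was 0 by totals alone, 0 under both limma settings, 1 with the replicate block (Dbx1 -1.48, edgeR adjusted p = 0.0556) and 3 without the filter, against 2. Over all genes, 5034 were called by totals alone, 4334 and 4500 under the limma settings and 4720 with the replicate block, against 5544, each of 21729 tested. Without the filter 5692 of 40964 were. Listed genes called were 13 without the filter and 4 with the replicate block, against 7. Evx1 was at 0.04 by totals alone and at 0.02 and 0.03 with limma, and Atoh1 at 0.00 with limma on log2(RPKM + 0.1). Leaving out 1 library gave 3500 to 6055 genes, 1 to 2 factors and 2 to 8 listed genes, with -1.24 to -0.11 for Atoh1, -1.90 to -1.09 for Dbx1, -0.87 to -0.46 for Shox2 and -0.27 to 0.00 for Evx1.

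Between same-numbered libraries, the r of deviations from the genotype means was -0.121 to 0.048 in the neonatal table and -0.177 to 0.148 in the prenatal one. Between prenatal WT and Lmx1b-/- it was 0.076, 0.148 and 0.097 at the same number, against -0.095 to -0.01 at different numbers. Between Lmx1b+/- and the other prenatal genotypes it was -0.177 to -0.053, against -0.116 to 0.237. With 3 libraries per genotype and litters not given, these values cannot decide whether the numbers pair the libraries. The replicate block changed no call of a factor besides that of Dbx1.

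Mean levels as a percentage of WT moved beyond the spread for Evx1 in Lmx1b+/-, from 107 to 92.6, both without TMM and in RPKM. With 1 library left out, the mean in Lmx1b+/- as a percentage of WT was 69.5 to 160 for Atoh1, 97.9 to 171 for Dbx1, 101 to 130 for Shox2 and 96.0 to 116 for Evx1. In Lmx1b-/- it was 57.2 to 82.3, 35.2 to 54.0, 69.0 to 76.9 and 85.8 to 108. In AMPKα2-/- it was 162 to 535 for Shox2 and 83.5 to 162 for Evx1.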

Other observations

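The remaining marker lists, of 10 genes each, are given by their summed CPM, as values only. The thalamus list was at 309 to 486 in prenatal WT, 206 to 447 in Lmx1b+/- and 244 to 358 in Lmx1b-/-, and at 146 to 202 in the neonatal libraries. The cerebellar granule cell list was at 509 to 650, 385 to 499 and 447 to 524 in the same prenatal order, with Gabra6 at 0 in prenatal WT and Lmx1b+/-. The forebrain list was at 30.9 to 42.6, 41.0 to 54.1 and 36.3 to 86.5, and 6 of its 9 tested genes were called higher in Lmx1b-/- than in Lmx1b+/-. The hypothalamus list was at 16.0 to 20.2, 8.5 to 19.3 and 20.7 to 26.8, and reached 75.5 in AMPKα2-/- 1. The skeletal muscle list was at 776 in neonatal WT 3 and at 3.32 to 10.2 in the 5 other neonatal libraries. The mesenchyme list was at 273 to 358, 221 to 478 and 244 to 375 in the prenatal genotypes.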
